A study of Rattus norvegicus with 16 samples.

Results

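The comparison described here set dentate gyrus samples labelled 0 hours against those labelled naive, in a rat series on passive avoidance training, a task in which an animal learns to withhold a step into a place where it has met an aversive stimulus. Its members were 2 arrays at 0 h and 3 naive arrays, chosen by their labels, out of 16 arrays in all. The other 11 carried a later hour (2 arrays each at 2, 3, 12 and 24 h, and 3 arrays at 6 h) and served to show where 0 h also stood apart from them, and, in the fit across all groups, to estimate the spread between replicates. Every sample, the naive ones included, was described by its submitters as taken from trained rats. Naive is read here as without the training, and the event from which the hours count is not given in the sources used here. Strain, sex, age, the number of animals behind a sample and any control for the handling or the stimulus alone are not given either. Since separate animals are not stated for replicates, a p-value here reflects the spread between these arrays alone, which may be technical. Each array measured total RNA on the Affymetrix RGU34A design, a single-colour oligonucleotide array.

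The dentate gyrus is the entry stage of the hippocampal circuit, and its granule cells fire sparsely. Strong activity in such cells is known to switch on immediate early genes, first transcription factors such as Fos, Egr1 and the Nr4a family, then effectors such as Arc, Homer1 and Bdnf that act at synapses. An aversive experience also releases glucocorticoids, whose receptor controls a further group of genes in neurons and glia, and protein-folding load is met by chaperones of the cytosol and of the endoplasmic reticulum.

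Levels below are scaled intensities: the deposited intensity of a probe set, with each array brought to 1 common 2% trimmed mean. Differences are on the log2 scale, 0 h minus naive, after values under 5.05 (the pooled 20th percentile) had been set to that lowest level. A probe set was tested where at least 2 of the 16 arrays exceeded the pooled 40th percentile, 16.9, which left 6220 of 8740. The test was limma's moderated test across all 7 groups with Benjamini-Hochberg adjustment over the 6220, and an adjusted p of 0.05 was the threshold. A level is comparable between arrays for 1 probe set, not between probe sets, and the number of arrays limits the precision.

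Before scaling, the trimmed mean was 100.1 and 89.3 on the 0 h arrays, against 127, 113 and 143 on the naive arrays. The 0 h arrays correlated with each other at r = 0.957 over the tested probe sets, the naive arrays at 0.944 to 0.956, and arrays across the 2 groups at 0.945 to 0.960, so the groups were no further apart than replicates. Both 0 h arrays had higher 3'/5' control ratios than all 3 naive arrays, 2.62 and 2.30 against 1.70, 1.49 and 1.70 for beta-actin and 1.54 and 1.69 against 1.12, 1.24 and 1.28 for Gapdh. A higher ratio means less signal from the 5' end of a transcript, a measure of RNA integrity or of the labelling reaction. Ttr, the transthyretin made by choroid plexus, read 2501 and 76.0 at 0 h, against 1989, 3763 and 4379 in naive. The second 0 h array was therefore low in this non-neural transcript and the other 4 were high. In bulk tissue, fewer cells of a type and less RNA per cell cannot be told apart. The part of these measures in the results below was not tested, except where a value is given.

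No probe set passed the test between 0 h and naive (0 of 6220, 0%), and the smallest adjusted p was 0.793 by limma. At an unadjusted p under 0.05, limma picked 311 probe sets, 5% of those tested, which is the 311 that p-values spread evenly would give. Of these, 95 (1.53%) were higher at 0 h and 216 (3.47%) were lower. With array medians for scaling the split was 114 higher and 155 lower, so 42.4% rather than 30.6% of the picks were higher. Without naive replicate 3, the picks numbered 489, and with only the 0 h and naive arrays fitted 375. The median difference over all tested probe sets was -0.02, and 47.3% lay above 0. Both 0 h arrays exceeded all 3 naive arrays for 624 probe sets (10%) and lay below all 3 for 726 (11.7%). The replicates themselves differed by a median of 0.28 between the 0 h arrays and 0.35 between naive arrays.

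**Figure D1:**
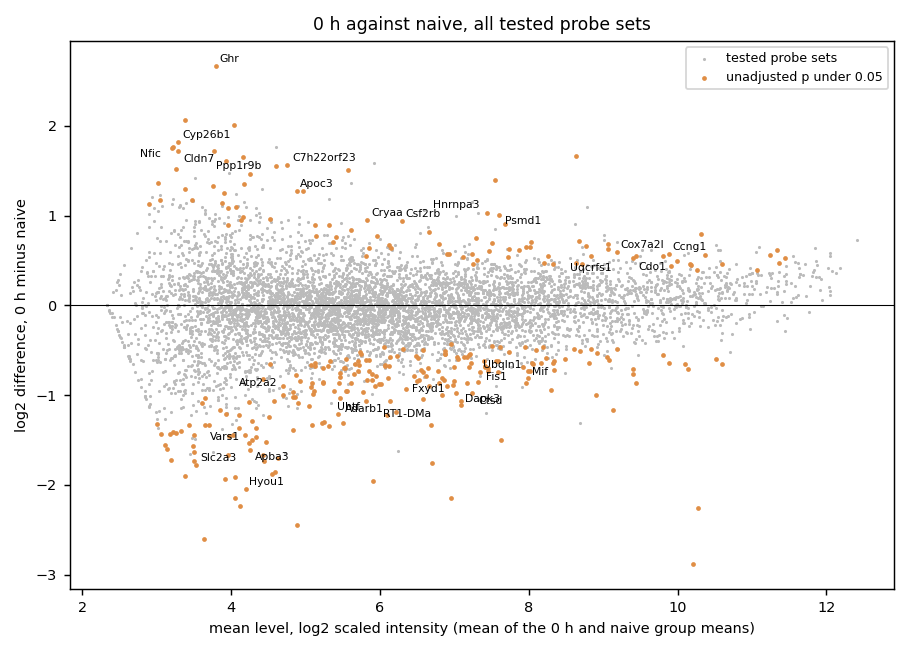
Difference between 0 h and naive (log2, vertical axis) against mean level (log2 scaled intensity, horizontal axis) for the 6220 tested probe sets. Orange points have an unadjusted p under 0.05 (95 higher, 216 lower), and the 15 leading higher genes and 14 of the 15 leading lower genes are named; the widest differences lie at low levels, and none passed the adjusted threshold.

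The genes named next come from the 15 with the smallest unadjusted p in each direction. They were chosen from this contrast, so their values are a description. The lowest p belonged to Ctsd, which encodes cathepsin D, the main aspartic protease of lysosomes. Its level was 110.0 and 104 at 0 h, against 195, 211 and 230.2 in naive. All 3 naive arrays lay above both 0 h arrays, a difference of -0.98 (SE 0.21, 95% interval -1.42 to -0.54), 1.97-fold lower, with an unadjusted p of 0.000216 and an adjusted p of 0.793 by limma. A second Ctsd probe set read 198 and 225 at 0 h, against 298, 407 and 297 in naive, lower on both 0 h arrays too (-0.65). RT1-DMa, a subunit of the chaperone that loads peptides onto MHC class II, read 46.4 and 50.8 at 0 h, against 119.7, 116 and 75.8 in naive. Its arrays did not overlap (-1.06, SE 0.24, 2.09-fold lower, adjusted p 0.793 by limma). The other RT1-DMa probe set read 147 and 125 at 0 h, against 251, 243 and 149.9 in naive and also did not overlap, by a narrow margin at naive replicate 3 (-0.62).

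Ubtf, the factor that opens ribosomal RNA genes for transcription, read 34.5 and 43.9 at 0 h, against 97.7, 84.2 and 65.8 in naive, a difference of -1.07 (SE 0.28). Adarb1, the adenosine deaminase that edits the transcripts of glutamate receptor subunits, read 33.3 and 28.5 at 0 h, against 56.5, 69.1 and 63.6 in naive, a difference of -1.03 (SE 0.27). For both genes every 0 h array was below every naive array. Vars1, the valyl-tRNA synthetase, read 15.3 and 8.14 at 0 h, against 30.1, 31.8 and 35.3 in naive, 2.90-fold lower, and the 0 h arrays themselves lay apart.

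Fxyd1, phospholemman, a regulator of the sodium pump, read 81.7 and 53.9 at 0 h, against 111, 167 and 138 in naive (-1.04). Its brighter probe set gave -0.33 with overlapping arrays. Atp2a2 encodes the SERCA2 calcium pump of the endoplasmic reticulum. The probe set named here read 21.5 and 19.6 at 0 h, against 35.6, 47.6 and 37.4 in naive, while its 3 other tested probe sets differed by 0.28, 0.12 and -0.04. Fis1, a mitochondrial fission protein, read 114 and 124 at 0 h, against 208, 256 and 188 in naive (-0.85), and its second probe set gave -0.13. Ubqln1, a shuttle that carries ubiquitinated proteins to the proteasome, read 123 and 128 at 0 h, against 196, 235 and 199.7 in naive (-0.74). On the probe sets whose levels are given, none of these groups of arrays overlapped, with the narrowest gap at Fxyd1.

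Mif, the macrophage migration inhibitory factor, read 178 and 207 at 0 h, against 363, 376 and 282 in naive (-0.81), and its brighter probe set gave -0.16 with overlapping arrays. Dapk3, a kinase linked to cell death and myosin phosphorylation, read 75.1 and 115 at 0 h, against 252, 246 and 130.3 in naive (-1.11), and its second probe set gave -0.73, also without overlap. Apba3, an adaptor of the Mint family that binds the amyloid precursor protein, read 5.90 and 20.3 at 0 h, against 33.1, 34.8 and 32.1 in naive (-1.61). The last 2 of the 15 came from dim probe sets. Slc2a3, the neuronal glucose transporter GLUT3, read 7.79 and 4.60 at 0 h, against 16.6, 22.4 and 26.5 in naive (-1.77), with 0 h replicate 2 at the lowest level. Hyou1, a chaperone of the endoplasmic reticulum, read 16.1 and 4.60 at 0 h, against 31.2, 37.1 and 44.6 in naive on that probe set (-2.04), whereas its bright probe set read 316 and 346 at 0 h, against 281, 305 and 310.0 in naive (0.15). The Hyou1 probe sets thus disagreed in direction.

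Among the 15 higher genes the widest difference was that of Ghr, the growth hormone receptor. Its level was 16.3 and 74.9 at 0 h, against 4.57, 4.30 and 6.503 in naive. Both 0 h arrays lay above all naive arrays but differed from each other several-fold, and 2 naive arrays were at the lowest level (2.67, SE 0.69, 95% interval 1.22 to 4.12, adjusted p 0.793 by limma). The difference was 1.57 without 0 h replicate 2 and 3.77 without 0 h replicate 1. Csf2rb, the shared beta chain of the receptors for GM-CSF, IL-3 and IL-5, read 109.8 and 109 at 0 h, against 67.5, 45.0 and 60.6 in naive (0.94, SE 0.26). Here the 0 h arrays were nearly equal, and the highest naive array lay well below them.

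Psmd1, a scaffold subunit of the proteasome's regulatory particle, read 221 and 343 at 0 h, against 136, 107 and 179 in naive (1.002), while 2 brighter probe sets gave -0.10 and 0.15. Hnrnpa3, an RNA-binding protein, read 236 and 262 at 0 h, against 113, 137 and 116 in naive (1.03), and its second probe set gave -0.06. For both genes only 1 of the probe sets stood apart. Cox7a2l, which helps respiratory complexes assemble into supercomplexes, read 762 and 669.9 at 0 h, against 531, 399 and 499 in naive (0.59), with 0.10 on its other probe set. Uqcrfs1, the Rieske iron-sulfur subunit of complex III, read 632 and 487 at 0 h, against 395, 345 and 404 in naive (0.54), and its other probe sets gave 0.46 and 0.25. All 3 Uqcrfs1 probe sets thus lay on the higher side.

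Ccng1, cyclin G1, a target of p53, read 1222 and 1097 at 0 h, against 831, 724 and 778 in naive, a tight and non-overlapping difference of 0.58 (SE 0.19). Cdo1, the cysteine dioxygenase that starts taurine synthesis, read 717 and 928 at 0 h, against 559, 539 and 598 in naive (0.53), but its second probe set lay on the other side (-0.31). Cryaa, the small heat shock protein alpha-A crystallin, read 97.4 and 64.5 at 0 h, against 47.9, 26.8 and 53.1 in naive (0.95). Apoc3, an apolipoprotein, read 38.0 and 55.2 at 0 h, against 13.2, 37.5 and 13.7 in naive (1.27), and naive replicate 2 nearly reached the lower 0 h array. The brighter Apoc3 probe set gave 0.15 with overlapping arrays.

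The remaining higher genes were named on probe sets that were dim in naive tissue. Nfic, a transcription factor of the nuclear factor I family, read 19.3 and 14.98 at 0 h, against 4.40, 4.02 and 4.29 in naive. All 3 naive arrays were below the lowest level, so the difference is only a bound, at least 3.36-fold higher at 0 h. Cyp26b1, the enzyme that breaks down retinoic acid, read 24.5 and 13.8 at 0 h, against 3.16, 4.96 and 5.54 in naive (1.82), with 2 naive arrays at the lowest level. Cldn7, a claudin of tight junctions, read 17.8 and 17.7 at 0 h, against 5.15, 6.08 and 4.06 in naive (1.71), with naive replicate 3 at the lowest level. The highest later array read 16.8, so this probe set passed the filter, at 16.9, only through the 0 h arrays. Its place among the leading higher genes was therefore partly set by that filter. The other Cldn7 probe set gave 0.76 with overlapping arrays. Ppp1r9b, spinophilin, a dendritic spine scaffold for protein phosphatase 1, read 42.6 and 40.8 at 0 h, against 30.6, 10.1 and 9.24 in naive on a dim probe set (1.56), whereas its bright one gave -0.41. C7h22orf23 read 47.0 and 45.8 at 0 h, against 14.3, 18.7 and 14.4 in naive (1.56), and its brighter probe set gave -0.23.

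Other probe sets of the same genes were not used in the choice. They were read on the same 5 arrays, so they are not independent of it. Of the 15 higher genes, 9 had another tested probe set, 11 in all, and 6 of these lay above 0 and 5 below, with a median of 0.10. Of the 15 lower genes, 9 also had another, 11 in all, of which 8 lay below 0 and 3 above, with a median of -0.16. Over all 1091 genes with more than 1 tested probe set, 56.8% of 1906 pairs of probe sets of 1 gene lay on the same side of 0. Second probe sets were therefore on the named side more often for the lower genes, and for the higher genes nearly as often on the opposite side. No test was made of that contrast.

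**Figure D2:**
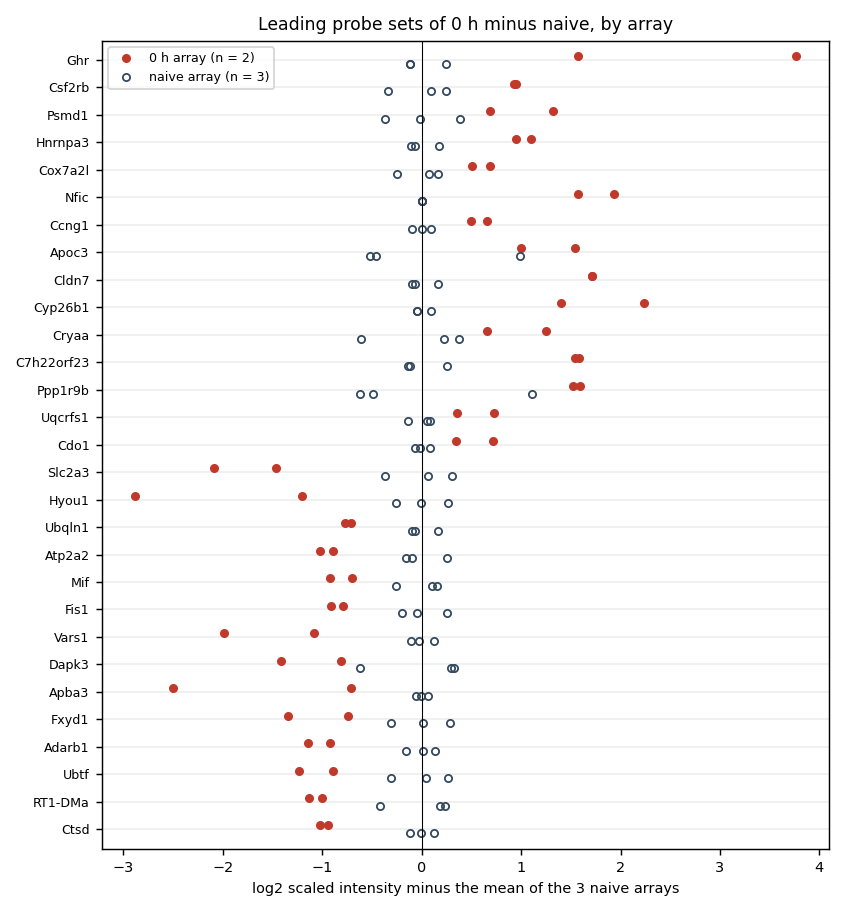
Level of the 15 leading higher genes and 14 of the 15 leading lower genes on each of the 5 arrays, as log2 scaled intensity relative to the mean of the 3 naive arrays, with 0 h above naive. Each point is 1 array; the 0 h and naive points do not overlap for any gene shown, and their adjusted p-values by limma ran between 0.793 and 0.887.

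The immediate early transcription factors did not stand apart as a group. Of 22 on the array 18 were tested, and 7 of them lay above naive, with a median difference of -0.02 beside -0.02 for all probe sets and a range of -0.58 to 0.68. The sign of that median turned positive under array-median scaling (0.04) and under quantile scaling (0.04). The median of all tested probe sets moved as well, to 0.04 and 0.02. This general shift also enters the list medians given below with array medians or quantile scaling. The 0 h arrays both exceeded all naive arrays for 3 of the 18 (background 10%) and lay below all of them for none (background 11.7%). At an unadjusted p under 0.05, 2 were higher (background 1.53%) and 1 was lower (background 3.47%).

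Egr1, the zinc finger factor also known as Zif268, read 682 and 669.8 at 0 h, against 437, 340.2 and 504 in naive on its brightest probe set. Both 0 h arrays lay above all naive arrays (0.68, SE 0.30, unadjusted p 0.0375, adjusted p 0.972 by limma). Its other probe sets gave 0.47, -0.16 and -0.12. Klf9, a factor that glucocorticoid and thyroid hormones are known to induce, read 861 and 819 at 0 h, against 575, 502 and 651 in naive (0.55, SE 0.24), and its second probe set gave -0.22. Cebpb, a basic leucine zipper factor, read 81.5 and 142 at 0 h, against 197, 164 and 128 in naive (-0.58), with overlapping arrays, and its dimmer probe set also lay on the lower side (-1.47).

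Fos, a subunit of AP-1, read 78.3 and 92.1 at 0 h, against 97.8, 104 and 87.1 in naive. The 0 h arrays lay within or just under the naive range (-0.18, 95% interval -0.72 to 0.36). Junb, another AP-1 subunit, read 39.1 and 50.0 at 0 h, against 79.3, 61.3 and 41.2 in naive (-0.40), and Jun differed in sign between probe sets, from -1.73 on the dimmest to -0.35, 0.42 and 0.67. Of the orphan nuclear receptors, Nr4a1 read 106 and 55.4 at 0 h, against 49.4, 53.0 and 74.8 in naive (0.40), with replicate 1 of 0 h above the naive range and replicate 2 inside it. Nr4a2 gave -0.20 and Nr4a3 -0.00. Myc, a growth-related factor, read 21.9 and 25.0 at 0 h, against 17.8, 21.4 and 12.7 in naive (0.47), just above the naive range on both arrays. Egr4 (-0.03), Fosl2 (-0.00), Atf3 (0.18), Crem (0.07), Klf4 (-0.04), Klf10 (0.02), Cebpd (-0.10) and Btg1 (-0.12) all lay within 0.20 of no difference on their brightest probe set. Dimmer probe sets gave -1.05 for Crem, 0.77 for Fosl2, -0.49 for Egr4 and -0.44 for Klf10, all with overlapping arrays. Those of Cebpd and Btg1 gave -0.28 and 0.12.

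The immediate early effectors lay slightly higher as a group. Of 21 on the array 19 were tested, and 12 of them lay above naive, with a median of 0.07 and a range of -0.28 to 0.48. None reached an unadjusted p under 0.05 by limma, and none passed the adjusted threshold. On the brightest probe sets, both 0 h arrays exceeded all naive arrays for 5 of the 19, beside 10% of all probe sets. These were Ptgs2, Nptx2, Homer1, Errfi1 and Dusp6. Both 0 h arrays lay below all naive arrays for 0, beside 11.7%.

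Arc, whose product controls endocytosis of AMPA receptors, read 160.0 and 174 at 0 h, against 153, 195 and 199 in naive. The 0 h values lay inside the naive range (-0.12, 95% interval -0.56 to 0.33). Homer1, whose short form loosens the postsynaptic scaffold, read 252 and 209 at 0 h, against 172, 189.6 and 182 in naive on its brightest probe set (0.34). Its other tested probe sets gave 0.32 and 0.24 without overlap, and 0.09, 0.01 and -0.05 with overlapping arrays. Nptx2, a pentraxin that clusters AMPA receptors, read 185 and 181 at 0 h, against 139.7, 106 and 174 in naive (0.42). Ptgs2, the inducible cyclooxygenase, read 76.7 and 86.1 at 0 h, against 52.3, 60.8 and 62.6 in naive (0.48). On the probe sets whose levels are given, these 3 genes had both 0 h arrays above all naive arrays. Their unadjusted p-values by limma were 0.178, 0.0807 and 0.181.

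Bdnf, the neurotrophin, had 7 tested probe sets, with differences from -0.06 to 0.67. Its widest-differing one read 101.07 and 85.5 at 0 h, against 66.4, 48.5 and 62.1 in naive (unadjusted p 0.121), without overlap. Sgk1, a kinase that glucocorticoids induce, read 231 and 104 at 0 h, against 112, 138 and 154 in naive (0.22), with only replicate 1 of 0 h above the naive range. The feedback inhibitors of MAP kinase and growth factor signalling gave 0.41 for Dusp6, -0.03 for Dusp1, -0.08 for Dusp5 and 0.25 for Errfi1. Vgf, a neuropeptide precursor, gave -0.17, Inhba, an activin subunit, -0.20, and Plat, the tissue plasminogen activator, -0.28. The others, Ier3 (0.13), Gadd45a (0.06), Rgs4 (0.07), Rheb (0.04), Syt4 (-0.11) and Zfp36 (0.18), lay within 0.20 of no difference on their brightest probe set. A dimmer Ier3 probe set gave -0.40, with both 0 h arrays below all naive arrays. Dimmer Gadd45a probe sets gave 0.48, with both 0 h arrays above all naive arrays, and -0.17 with overlap.

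**Figure D3:**
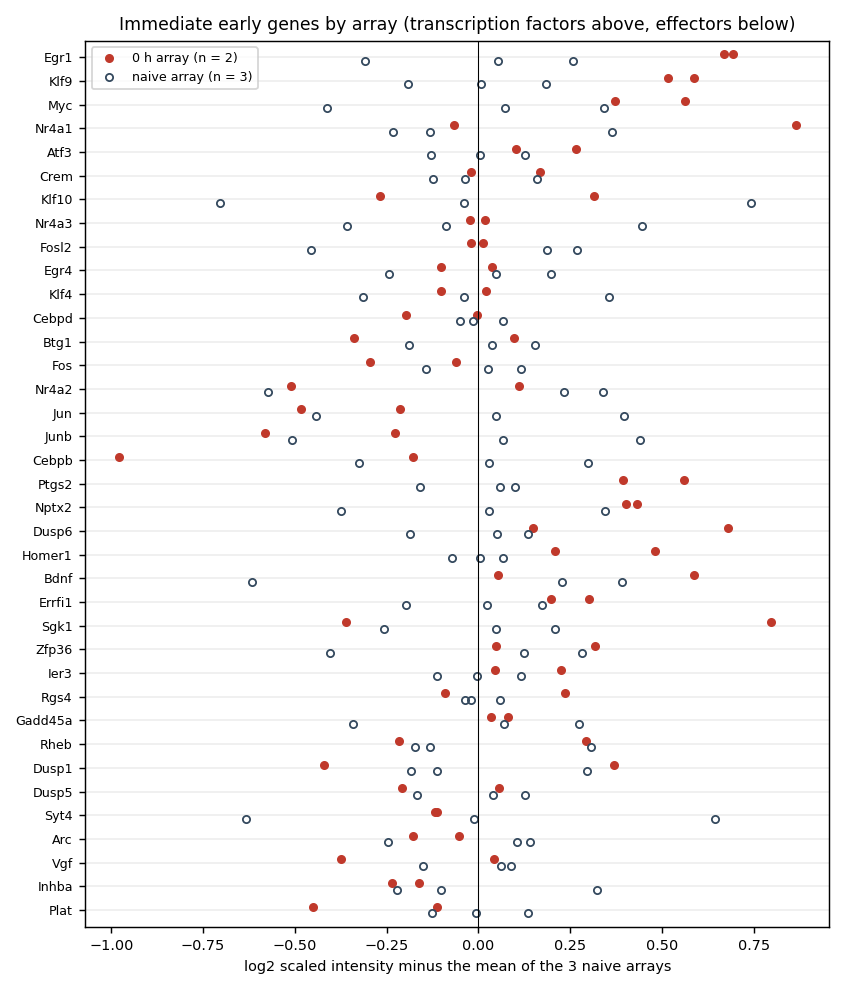
Level of the 18 tested immediate early transcription factors and 19 effectors on each of the 5 arrays (log2 scaled intensity relative to the mean of the 3 naive arrays), with 0 h and naive arrays as separate point types. For Arc both 0 h points lie among the naive ones and for Fos 1 lies just below them, whereas for Egr1 and Klf9 both 0 h points lie above all naive points.

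Genes controlled by glucocorticoids or by the stress hormone axis lay mostly higher. Of 17 on the array 15 were tested and 13 lay above naive, beside 47.3% of all probe sets, with a median of 0.34 beside -0.02. None reached an unadjusted p under 0.05 by limma, and for 3 both 0 h arrays exceeded all naive arrays (background 10%). Glul, glutamine synthetase of astrocytes, read 2438 and 2567 at 0 h, against 1949.8, 1913 and 2089 in naive on its brightest probe set (0.34, SE 0.18), but its other probe sets gave 0.19, -0.20 and -0.33. Hsd11b1, the enzyme that regenerates active glucocorticoid, read 618 and 678 at 0 h, against 568, 469 and 442 in naive (0.40). Sult1a1, a phenol sulfotransferase, read 161 and 196 at 0 h, against 145, 136 and 131 in naive (0.37). These 3 were the genes of the list with both 0 h arrays above all naive ones. Adrb1, the beta-1 adrenergic receptor, was dim, at 23.2 and 9.20 at 0 h, against 5.07, 3.84 and 11.9 in naive (1.12, SE 0.71). The list's median was 0.11 without naive replicate 3.

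Chaperones and heat shock proteins also lay mostly higher, 29 of the 35 tested out of 36 on the array, with a median of 0.18. An unadjusted p under 0.05 was met by 3 on the higher side (background 1.53%) and 1 on the lower (background 3.47%), and none passed the adjusted threshold. Cryab, alpha-B crystallin, read 262 and 405 at 0 h, against 232, 162 and 236 in naive (0.65, SE 0.27). Hspd1, the mitochondrial chaperonin, read 1060.2 and 1189 at 0 h, against 856, 691 and 955 in naive (0.44, SE 0.20). Both had every 0 h array above every naive one. Canx, the lectin chaperone calnexin, read 1537 and 1682 at 0 h, against 1142, 727 and 1562 in naive (0.56), with naive replicate 3 just above the lower 0 h array. Of the 6 below naive, Serpinh1, the collagen chaperone, read 57.6 and 52.1 at 0 h, against 85.6, 106 and 74.8 in naive (-0.68), and P4hb, a protein disulfide isomerase, 290.04 and 191 at 0 h, against 306, 305 and 313 in naive (-0.39). In these 2 both 0 h arrays were below all naive arrays.

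Set against the 11 later arrays (equal weight to each hour), no probe set passed either (0 of 6220, 0%), with a smallest adjusted p of 0.338 by limma. Unadjusted p-values under 0.05 were more frequent here, 613 probe sets (9.86%), 270 higher at 0 h (4.34%) and 343 lower (5.51%). That count was 309 without 0 h replicate 1 and 358 without 0 h replicate 2. Without 0 h replicate 2, 2 probe sets passed, for the olfactory receptor Or8g20b and the adenylyl cyclase Adcy5, in both of which the remaining 0 h array was low. Chaperones lay above the later hours for 29 of 35 genes, beside 49.1% of all probe sets, with a median of 0.22. This comparison shares the 0 h arrays with the one against naive. The 8 genes with the smallest p in each direction are described next, all with an adjusted p of 0.338 by limma.

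The most separated was Rara, the retinoic acid receptor alpha. It read 766 and 585 at 0 h, against later values of 258 at the lowest, 311 at the median and 504 at the highest. Both 0 h arrays lay above all 11 later arrays (1.02, SE 0.21) and above the naive values of 483, 309.9 and 539 (0.63). Ghr lay above 10 of the 11 later arrays on both 0 h arrays (2.44). Gabra5, the alpha-5 subunit of extrasynaptic GABA-A receptors in hippocampus, read 290.1 and 384 at 0 h, against 107 to 227 at the later hours (0.99), with naive values of 206, 134 and 311 overlapping both ranges. Its dimmer probe set gave 0.29 against the later hours, with overlapping arrays. Slc12a2, the chloride importer NKCC1, read 226 and 268, against 95.7 to 170.2 (0.86). The naive Slc12a2 values of 169, 203 and 254 overlapped those at 0 h. Ube2a, a ubiquitin-conjugating enzyme, read 255 and 246, against 97.0 to 199 (0.72), and Uqcrfs1 gave 0.65.

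The other 2 higher genes both fold proteins in the endoplasmic reticulum. Hspa5, the reticulum's Hsp70 known as BiP, read 217 and 261 at 0 h, against 63.5 to 159 at the later hours (1.05, SE 0.27). Naive arrays read 194, 142 and 296, overlapping 0 h (0.24). Its brighter probe set read 718 and 781, against 426 to 721 (0.44). Canx read 1537 and 1682, against 638 to 1184 (0.84, SE 0.22), and its 4 other probe sets gave 0.58, 0.66, 0.66 and 0.38. For both genes the 0 h arrays lay above all 11 later arrays on the probe set first named.

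The promoters of these 2 genes are shown because both hold the endoplasmic reticulum stress response element (CCAAT, then 9 bases of any kind, then CCACG), the textbook control site of this chaperone group. The search was made after the values had been seen. RefSeq promoters of the GRCr8 build were searched over 250 bases upstream of the start site on both strands. The element was found in 22 of 33469 promoters (0.0657%). Of the 43 leading genes of both comparisons, 37 had a matched promoter, and 3 of these held the element, with Hnrnpa3 as the third. Hyou1, also a leading gene and a chaperone of the endoplasmic reticulum, had a searched promoter without a match. Each line runs 5' to 3' on the gene's strand with the element in capitals, and in Hnrnpa3 it lies on the opposite strand.
Hspa5, chr3:38452953-38453011, plus strand: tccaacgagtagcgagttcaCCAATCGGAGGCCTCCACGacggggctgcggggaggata
Canx, chr10:35158049-35158107, minus strand: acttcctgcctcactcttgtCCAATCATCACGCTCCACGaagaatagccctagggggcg
Hnrnpa3, chr3:80985693-80985751, plus strand: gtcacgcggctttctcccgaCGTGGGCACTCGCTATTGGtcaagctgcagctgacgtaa
A match is a description of these letters and not a site of binding. Leading and immediate early counts are of genes, whereas the shares are of all promoter entries, not limited to genes on the array. The counts and shares are therefore in unlike units and show no enrichment. The cyclic AMP response element TGACGTCA was in 2 of the 37 leading genes (Cldn7 and Mif) and in 3 of 27 matched immediate early genes (Crem, Dusp1 and Vgf), beside 1.59% of all promoters. The shorter core TGACG, which the full element contains, was in 16 of the 37 and 18 of the 27, beside 18.2%. The serum response element was in 3 of the 27 (Dusp5, Egr1 and Zfp36), beside 1.5%, and in 1 of the 37 (Dapk3). The AP-1 site, TGACTCA or TGAGTCA, was in 3 of the 37 and 0 of the 27, beside 4.05%. The heat shock element core GAANNTTC was in 3 and 4, beside 7.23%, and the glucocorticoid response element (GNACA, then 3 bases of any kind, then TGTNC) in 0 and 0, beside 0.373%.

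On the lower side of the comparison with the later hours, Tst, the mitochondrial thiosulfate sulfurtransferase, read 243 and 254, against 342 at the lowest, 439 at the median and 529 at the highest (-0.79, SE 0.17). Both 0 h arrays lay below all 11 later arrays, as they did on its second probe set (-0.89). Gabrb1, the beta-1 subunit of GABA-A receptors, read 81.8 and 76.0, against 100.04 to 193 (-0.87), and the naive arrays at 155, 139 and 98.0 also lay above 0 h (-0.70). Pik3r2, a regulatory subunit of PI3 kinase, gave -1.46 and -0.82 on its 2 probe sets. Phgdh, the first enzyme of serine synthesis, read 132 and 139, against 157 to 255 (-0.66), and Uqcr11, a small complex III subunit, read 1187 and 1299, against 1421 to 2905 (-0.84). Mif (-0.80), Alkbh7 (-1.10) and Dgcr6 (-0.87) completed the 8. For all 8 both 0 h arrays lay below each of the 11 later arrays on the probe set with the smallest p.

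Of the 52 oxidative phosphorylation genes, all tested, 36 lay above naive (median 0.14), and for 14 both 0 h arrays exceeded all naive arrays, beside 10% of all probe sets. The list's median level relative to the naive mean was 0.16 and 0.15 at 0 h, against 0.16, -0.01 and -0.15 in naive, so naive replicate 1 was level with 0 h. Cox7a2l and Uqcrfs1, described above, were the 2 higher ones with an unadjusted p under 0.05 (background 1.53%). On the lower side (2 genes, background 3.47%) these were Atp5f1d, a subunit of ATP synthase, at 368 and 518 at 0 h, against 823, 722 and 461 in naive (-0.57), and Cox8b, at 16.2 and 9.20 at 0 h, against 20.3, 84.8 and 52.2 in naive (-1.87). Cox8b, the muscle isoform of a complex IV subunit, was also on the choroid plexus list. Proteasome and ubiquitin genes lay above naive for 28 of 39 tested (41 on the array), with a median of 0.14. For 10 both 0 h arrays were above all naive arrays (background 10%), and for 2 below all of them (background 11.7%). Psma1, a core particle subunit, read 212 and 204 at 0 h, against 170.4, 121 and 185 in naive (0.42), Ube2b, a ubiquitin-conjugating enzyme, 487 and 428 at 0 h, against 294, 301 and 440.2 in naive (0.43), and Psmc3, an ATPase of the regulatory particle, 143 and 147 at 0 h, against 211, 178 and 199 in naive (-0.43). None of the list had an unadjusted p under 0.05 by limma.

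Of 40 ribosomal protein genes 25 lay above naive, with a median of 0.08 and none at an unadjusted p under 0.05 by limma. Their median level relative to the naive mean was 0.04 and 0.15 at 0 h, against 0.04, -0.03 and 0.03 in naive, with 0 h replicate 1 inside the naive range. Rps6 read 1665 and 1617 at 0 h, against 1148, 1262 and 1415 in naive (0.37), and Rpl26 read 1325 and 1315 at 0 h, against 1004, 849 and 1159 in naive (0.41). Rpsa ran the other way at 715 and 748 at 0 h, against 944, 1125 and 745 in naive (-0.34). Against the later hours 29 of the 40 lay below 0, with a median of -0.20 (-0.17 with array medians and -0.21 with quantile scaling). Glycolysis genes lay near naive (11 of 18 tested above, 20 on the array, median 0.06, and -0.03 with quantile scaling), and Aldoa, an aldolase, was lowest at 641 and 891 at 0 h, against 1214, 1286 and 1049 in naive (-0.64).

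In the GABA system 16 of 21 tested genes (25 on the array) were below naive, with a median of -0.25, and for 4 both 0 h arrays were below all naive ones, beside 11.7% of all probe sets. That median was -0.06 without 0 h replicate 2. Gabra3, the alpha-3 subunit, was dim at 4.84 and 9.20 at 0 h, against 13.6, 20.6 and 17.9 in naive (-1.33), and Gabrb1 was described above. Gabra5 ran the other way at 290.1 and 384 at 0 h, against 206, 134 and 311 in naive (0.70), with naive replicate 3 inside the 0 h range. Its dimmer probe set gave -0.003. Gabrb2, the beta-2 subunit, read 388 and 523 at 0 h, against 238, 237 and 538 in naive (0.53). Against the later hours the GABA list had a median of 0.02.

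Of 33 tested glutamate receptor and scaffold genes (38 on the array) 21 lay below naive (median -0.15, and -0.02 without 0 h replicate 2). For 5 both 0 h arrays were below all naive arrays, 15.2% beside a background of 11.7%. The list's median level relative to the naive mean was -0.07 and -0.16 at 0 h, against 0.13, 0.06 and -0.16 in naive, so the groups overlapped. Homer3, a postsynaptic scaffold, read 19.8 and 18.2 at 0 h, against 44.0, 30.6 and 33.2 in naive (-0.90), and Grik4, a kainate receptor subunit of CA3 pyramidal cells, read 76.3 and 84.8 at 0 h, against 115, 125 and 102 in naive (-0.50). In both the 0 h arrays lay below all naive arrays. Grik5, another kainate subunit, read 170.2 and 369 at 0 h, against 527, 325 and 308 in naive (-0.58), a difference that was -0.02 without 0 h replicate 1. Dlgap3, a PSD-95-binding scaffold, read 8.84 and 19.0 at 0 h, against 39.5, 12.3 and 35.5 in naive (-0.99, and -0.44 without 0 h replicate 1), and the arrays of both genes overlapped. For synaptic vesicle genes 15 of 36 tested lay above naive (45 on the array, median -0.05, or 0.01 with array medians). Vamp3, the vesicle SNARE cellubrevin, was higher at 253 and 255 at 0 h, against 162, 173 and 192 in naive (0.54), and Sh3gl2, endophilin A1 of vesicle recycling, lower at 77.9 and 83.5 at 0 h, against 185, 204 and 112 in naive (-1.003). Syt3, a calcium sensor, gave -0.43, and Sv2c, a vesicle protein, -1.08 from a low value on 0 h replicate 2 alone.

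Signalling and excitability genes lay close to naive as lists. Of 63 tested genes of calcium, cyclic AMP and MAP kinase signalling (73 on the array) 27 lay above naive, with a median of -0.03, or 0.03 with array medians for scaling. An unadjusted p under 0.05 was met by 3 on the lower side (background 3.47%) and 0 on the higher (background 1.53%). Camk2n1, an inhibitor of CaM kinase II, read 119 and 96.1 at 0 h, against 259, 216 and 132 in naive (-0.87, SE 0.27), without overlap. Pde2a, a phosphodiesterase of both cyclic nucleotides, read 169.9 and 263 at 0 h, against 387, 359.6 and 264 in naive (-0.65). Adcy5, an adenylyl cyclase, read 10.4 and 56.4 at 0 h, against 64.2, 56.3 and 58.2 in naive (-1.29), a difference that was -0.08 without 0 h replicate 1. Its dimmer probe set lay on the other side, at 0.20 against naive and 0.74 against the later hours. Among 42 tested ion channel genes (52 on the array, 19 above, median -0.04, or 0.02 with array medians), Cacna1c, the L-type calcium channel Cav1.2, read 161 and 131 at 0 h, against 87.4, 107 and 99.9 in naive (0.57), and Kcna4, an A-type potassium channel, 43.7 and 49.1 at 0 h, against 21.9, 25.0 and 36.4 in naive (0.77). Both were higher without overlap, while Kcnab2 (-0.55) and Cacna1g (-0.48) lay lower.

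Trophic factors and neuropeptides lay above naive for 30 of 40 tested genes (48 on the array, median 0.13). For 2 both 0 h arrays exceeded all naive arrays (background 10%), and for 4 they lay below all of them (background 11.7%). The list's median level relative to the naive mean was 0.20 and 0.04 at 0 h, against -0.05, -0.11 and 0.16 in naive, so the groups overlapped. An unadjusted p under 0.05 by limma was met by 1 on the higher side (background 1.53%) and 3 on the lower (background 3.47%). Scg3, a granin of secretory granules, read 1195 and 1235 at 0 h, against 872, 702 and 1039 in naive (0.50). Cck, the neuropeptide cholecystokinin, made in hippocampus by a class of interneurons, read 184 and 213 at 0 h, against 358, 297 and 331 in naive (-0.73, SE 0.25), well separated. Nppa, the atrial natriuretic peptide precursor, read 10.6 and 20.8 at 0 h, against 50.2, 23.6 and 36.8 in naive (-1.24), and Igf2, a growth factor of choroid plexus and meninges, 179 and 77.8 at 0 h, against 127, 616 and 477 in naive (-1.50). Igf2 was low on naive replicate 1 as well, so its groups overlapped, and its dimmer probe sets gave -0.12, -0.19 and -0.03.

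Adhesion and matrix genes lay below naive for 37 of 52 tested (59 on the array, median -0.16), and for 9 both 0 h arrays were below all naive arrays, beside 11.7%. That median was -0.01 without 0 h replicate 2. Gpc1, the heparan sulfate proteoglycan glypican-1, read 177 and 208 at 0 h, against 363, 366 and 221 in naive (-0.68), narrowly without overlap. Nrxn2, a presynaptic neurexin, gave -0.41, also without overlap. Cd9, a tetraspanin, gave -0.67 with overlapping arrays. Mmp14, a membrane metalloprotease, read 49.7 and 26.9 at 0 h, against 48.7, 47.0 and 78.9 in naive (-0.63), with 0 h replicate 1 inside the naive range and a difference of -0.19 without 0 h replicate 2. Lysosomal genes, Ctsd included, were mixed, with 10 of 23 tested above naive (24 on the array, median -0.05, or 0.03 with array medians). Arsb, a sulfatase, gave -0.51 and Man2b1, a mannosidase, -0.47, while Igf2r, the mannose 6-phosphate receptor, gave 0.65.

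**Figure D4:**
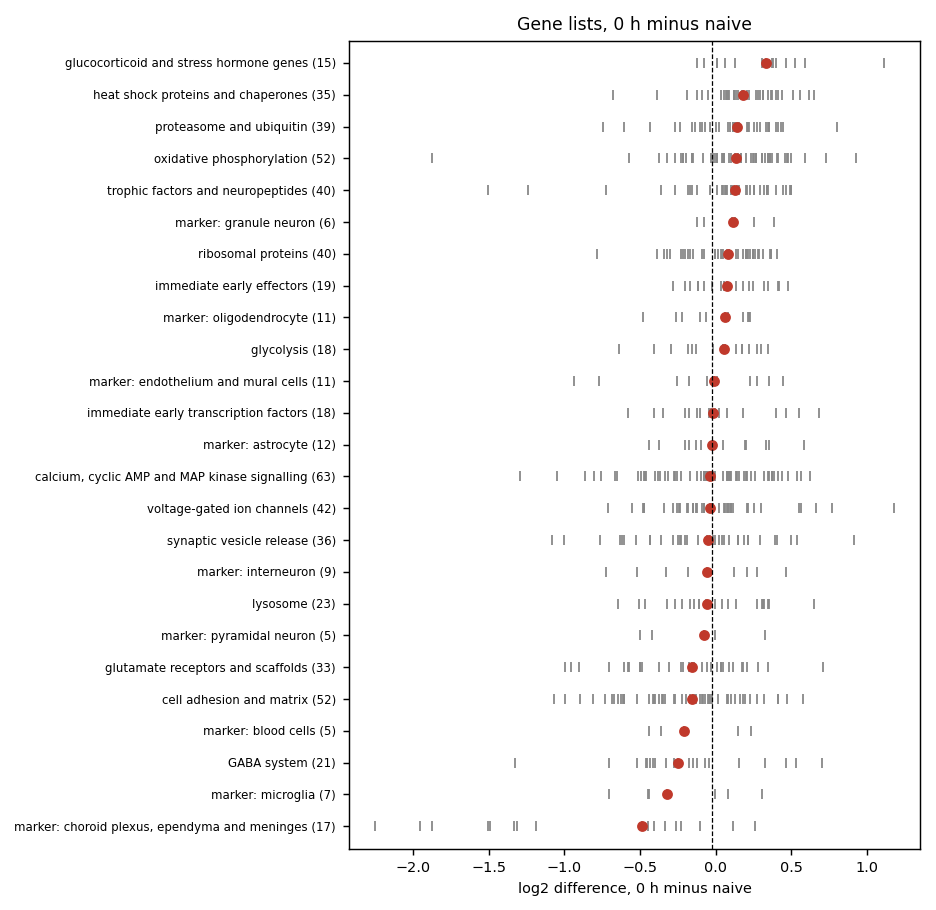
Log2 difference, 0 h minus naive (horizontal axis), of the genes of each list (grey ticks, 1 per tested gene) with their median (red point); the number of tested genes stands after the list's name and the dashed line is the median of all probe sets. The glucocorticoid list (median 0.34) and the choroid plexus markers (-0.49) lie farthest from that line (-0.02).

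The labelled tissue showed its own markers. Of 7 granule neuron markers on the array 6 were tested, among them Calb1, the calcium buffer calbindin, at 350.4 and 409.7 at 0 h, against 289, 342 and 425 in naive (0.13), Pdyn, prodynorphin, at 458 and 363 at 0 h, against 339, 299 and 391 in naive (0.26) and Neurod1, a granule neuron transcription factor, at 157 and 167 at 0 h, against 128, 111 and 134 in naive (0.39). All 3 were well above the lowest level on all 5 arrays, and the list had 4 above naive and a median of 0.12. No marker of any list was at the lowest level on all 5 arrays. Pyramidal markers had a median of -0.08 (1 of 5 tested above, 6 on the array, -0.47 without 0 h replicate 2, and 0.02 with array weights), interneuron markers -0.05 (4 of 9, 10 on the array, 0.01 with array medians) and astrocyte markers -0.02 (6 of 12, 0.04 with array medians). Slc1a3, the astrocyte glutamate transporter GLAST, read 1428 and 1332 at 0 h, against 788, 848 and 1162 in naive (0.59). Oligodendrocyte markers had a median of 0.06 against naive (6 of 11) but 0.37 against the later hours, where 10 of 11 lay above 0 and 4 had an unadjusted p under 0.05, beside 4.34% of all probe sets. That median was 0.40 with array medians and 0.37 with quantile scaling, and Mobp, a myelin protein, read 1811 and 2130.1 at 0 h, against 891 to 2038 at the later hours (0.54).

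Microglial markers lay below naive for 5 of 7 tested (10 on the array, median -0.32, and -0.12 over the 4 left by a filter at the 60th percentile). For 2 both 0 h arrays were below all naive arrays (background 11.7%), and for 2 they were above all of them (background 10%). C1qb, a chain of complement C1q, read 165 and 147 at 0 h, against 232, 209 and 198 in naive (-0.45), and its second probe set read 60.4 and 81.8 at 0 h, against 147, 124 and 87.8 in naive (-0.74). Neither probe set overlapped between groups. C1qc, another chain, gave -0.32, also without overlap, and Cx3cr1, the fractalkine receptor, -0.44 with overlapping arrays. Higher on both 0 h arrays were Aif1, a calcium-binding protein of microglia, at 62.1 and 63.3 at 0 h, against 61.1, 40.8 and 52.1 in naive (0.31), and Ctss, the lysosomal protease cathepsin S, at 1528 and 1620.0 at 0 h, against 1494, 1481 and 1485 in naive (0.08). The markers' median log2 level relative to the naive mean was -0.25 and -0.39 at 0 h, against 0.04, -0.02 and -0.00 in naive. Their summed level, most of it Ctss, was 1900 and 1958 at 0 h, against 1908 to 1956 in naive. Ctsd and RT1-DMa, the leading lower genes, are both abundant in microglia and other phagocytes, and the part of this marker list in their values was not tested. Endothelial and mural markers had a median of -0.01 (5 of 11 tested above, 12 on the array, 0.03 with array medians), with Flt1, a VEGF receptor, at 22.8 and 22.1 at 0 h, against 38.1, 44.5 and 33.3 in naive (-0.77). Blood cell markers had a median of -0.21 (2 of 5 tested above, 7 on the array), or 0.15 without 0 h replicate 2.

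Choroid plexus, ependymal and meningeal markers were the lowest list. Of 19 on the array 17 were tested, 15 lay below naive, and the median was -0.49. For 6 the unadjusted p was under 0.05 on the lower side (background 3.47%), yet for 1 alone, Cox8b, did both 0 h arrays lie below all naive arrays (background 11.7%). Ttr differed by -2.88 (SE 1.16) and -2.26 (SE 0.93) on its 2 probe sets. Sostdc1, a secreted antagonist of BMP and Wnt signals, read 57.9 and 16.04 at 0 h, against 29.2, 258 and 219 in naive (-1.96). Igfbp2, an IGF-binding protein, read 86.1 and 49.1 at 0 h, against 82.3, 307 and 173 in naive (-1.33). In both, naive replicates 2 and 3 were high, and naive replicate 1 lay among the 0 h arrays. The markers' median log2 level relative to the naive mean was -0.40 and -0.81 at 0 h, against -0.99, 0.77 and 0.51 in naive. Their summed level was 4367 and 1201 at 0 h, 2997 to 7226 in naive and 750 to 5771 at the later hours. The list median was -0.996 without naive replicate 1 and -0.40 without 0 h replicate 2. The naive arrays thus differed among themselves in this tissue's transcripts by more than the groups did.

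**Figure D5:**
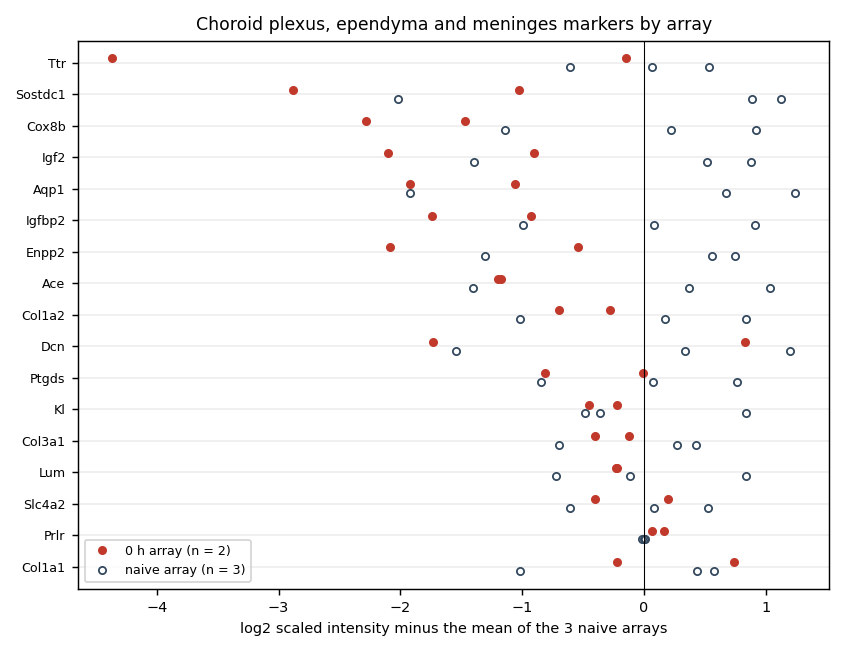
Levels of the 17 tested choroid plexus, ependymal and meningeal markers on the 0 h and naive arrays (log2 scaled intensity relative to the mean of the 3 naive arrays). Naive replicates 2 and 3 lie high, with medians of 0.77 and 0.51, and naive replicate 1 (-0.99) lies below both 0 h arrays (-0.40 and -0.81).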

How the data were processed

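Total RNA of rat dentate gyrus was measured on 16 single-colour Affymetrix RGU34A arrays, 2 at 0 h, 3 naive and 11 at later hours. The authors deposited 1 table of intensity values with 8799 probe sets. It holds linear intensities that had not been brought to 1 scale, since array trimmed means ranged from 33.3 to 170.3, a 5.11-fold span. The software that computed them is not given in the sources used here. Controls (59) were left out, each array was scaled to a 2% trimmed mean of 105, values were held at or above 5.05, and log2 was taken. Group means were modelled across all 7 groups by limma 3.58.1 under R 4.3.3 (moderated by eBayes with a variance trend, no block, 9 residual degrees of freedom), and p-values were adjusted by Benjamini-Hochberg. The pipeline was tested on simulated data. The number of arrays, not a read depth, limits precision.

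Symbols came from the platform annotation, updated through gene IDs for 6985 probe sets. Of 8740 probe sets, 7006 had 1 symbol, 308 had several and were not named, and 1426 were unlisted. List genes were represented by the tested probe set with the highest mean. Named genes were the 15 with the smallest p each way against naive, 8 each way against the later hours, all immediate early genes, up to 4 per other list, and tissue and RNA measures; 1 of the 15 lower genes is not reported here. The samples compared, the lists and the rules were chosen with earlier results of these data known. Alternatives changed the scaling, the filter and lowest level, the weighting of arrays, the variance trend, which groups were fitted, a replicate block, 1 probe set per gene, or left out each array. Sequences were read from RefSeq promoters, build GRCr8.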

Additional observations from a re-analysis of the deposited data

Results flagged for a closer look

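The 3'/5' ratios of the control probe sets, which the comparison itself does not use, were higher on both 0 h arrays than on any naive array. For beta-actin they were 2.62 and 2.30 on 0 h replicates 1 and 2, against 1.70, 1.49 and 1.70 on the naive arrays. For Gapdh they were 1.54 and 1.69 at 0 h, against 1.12, 1.24 and 1.28 in naive. Among the later arrays the ratios ran from 1.51 to 2.80 for beta-actin and from 1.13 to 2.04 for Gapdh, and for each control 7 of those 11 arrays lay below both 0 h arrays. The part of these ratios in the differences between 0 h and naive was not tested.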

How the results depend on the processing

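Of 131 counts recomputed under an alternative, 116 stayed within 1.5 times the reported count and 15 did not. Without the filter on low values, limma called 2 of 8740 probe sets between 0 h and naive and 4 between 0 h and the later hours. The 2 were Kcnj10 (14.7 and 11.2 at 0 h, against 2.82 to 5.80 in naive) and Myh7 (10.9 and 9.79 at 0 h, against 0.499 to 4.36 in naive), dim probe sets near the lowest level, and the others were Hdc and Nat1. With array weights, 620 and 992 probe sets had an unadjusted p under 0.05 against naive and against the later hours. With 1 probe set per gene (3678 tested, so fewer features), these counts were 180 and 382, and 802 did not overlap. Leaving out 1 array at a time, the unadjusted count ran from 214 to 489 against naive and from 309 to 761 against the later hours, adjusted calls from 0 to 0 and from 0 to 2, and the non-overlap count from 1350 to 2958, since fewer arrays overlap less often.

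The smallest adjusted p against naive was 0.0636 without 0 h replicate 2 and 0.102 without naive replicate 1, beside 0.793 with all arrays. The labels state no pairing of arrays by replicate number. Deviations of same-numbered 0 h and naive arrays correlated at -0.07 and 0.03, and those of crossed numbers at -0.03 and 0.07. With 2 arrays at 0 h the deviations from their mean mirror each other. These values are therefore not separate and cannot show whether arrays were paired. With the replicate number as a replicate block, 112 probe sets were higher and 234 lower at an unadjusted p under 0.05, and no probe set was called. Of 3763 recomputed gene differences, 10 turned direction, for Btg1 (-0.3382 to 0.09678 over arrays left out), Calb1 (-0.008371 to 0.2702), Pdgfrb (-1.988 to 0.114), Sv2c (-2.346 to 0.1882), Hba-a3 (-1.317 to 0.4296, and 0.009211 with the lowest level at the 30th percentile) and Man1a1 (-0.4725 to 0.3194, 0.04474 with array weights and 0.01825 with the replicate block). The cause was not tested. Of 675 list medians, 604 moved by less than the spread between replicates and 71 by more. Many of these recomputations could not move a value against naive. Leaving out a later array, dropping the variance trend or fitting only the groups compared keeps the 0 h and naive means as they are. The totals of 3763 and 675 include such settings, so the unmoved values among them are no measure of stability.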
